A study of Mus musculus with 12 samples.

Results

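Hhatl and 8 genes of the hedgehog pathway were followed across all 12 libraries of pregnant mouse uterus. The members were found by gene symbol, and all 9 were rows of the deposited table of 24964 genes: the acyltransferase relatives Hhatl and Hhat, the ligands Ihh and Shh, the receptor components Ptch1 and Smo, and the transcription factors Gli1, Gli2 and Gli3. Hhatl was chosen by its measured level, which was high in both overexpression groups, so its difference from control is given as a description, without a test. The remaining members were picked for their place in the pathway.

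The study asked what extra progesterone receptor of either isoform does to uterine smooth muscle in pregnancy. RNA from uterine tissue was taken at 13.5 days post coitum (dpc) and sequenced in 3 groups of 4 libraries. The PGR-B OE group had the genotype Myh11Cre; LSLPGRB/+ and overexpressed receptor isoform B. The PGR-A OE group had the genotype Myh11Cre; LSLPGRA/+ and overexpressed isoform A. The control group had the genotype Myh11Cre, so all 3 groups carried the Cre transgene and the controls are not wild-type mice. Myh11 encodes smooth muscle myosin heavy chain, and a Myh11-driven Cre acts in smooth muscle of the vessel wall and other organs as well as in myometrium. Maternal age, strain and litter are not given in the labels, and nothing says that the 4 libraries of a group came from separate animals. The p-values below therefore rest on the spread among these samples, which could be technical in part.

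Hedgehog ligands are secreted proteins that carry a cholesterol and a palmitate group; the palmitate is added by the acyltransferase encoded by Hhat. A ligand bound to Ptch1 relieves the block that Ptch1 places on Smo, and Smo signalling lets the Gli factors act as activators of genes that include Gli1, Ptch1 and Hhip themselves. In the mouse uterus, Ihh is known as a progesterone-responsive ligand of the epithelium whose receptors lie in the stroma. Hhatl belongs to the same family of membrane-bound acyltransferases as Hhat. It is not known to palmitoylate hedgehog ligands, was described in cultured mammalian cells as an inhibitor of that step, and is known mainly from heart and skeletal muscle.

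Library totals ran from 31872534 to 33078483 counts. Levels are in CPM, edgeR's count relative to a library size that was TMM-scaled (trimmed mean of M-values). Pgr, the gene behind the labels, averaged 223 ± 26.5 CPM in PGR-B OE, 199.7 ± 38.5 CPM in PGR-A OE and 121 ± 16.5 CPM in control libraries (SD, n = 4 each), without overlap between either overexpression group and control. Smooth muscle markers, summed over 10 genes, reached 13112 to 17398 CPM in PGR-B OE, 18051 to 24865 CPM in PGR-A OE and 13473 to 17588 CPM in control libraries, so the muscle markers of the labelled tissue were abundant in every library. The libraries that stood farthest apart were PGR-A OE replicate 4, PGR-B OE replicate 1 and control replicate 4, in which 73, 25 and 55 genes lay more than 2-fold above every other library, against 0 to 7 in the other 9 libraries. Only tested genes with at least 5 CPM in the library in question were counted. PGR-A OE replicate 4 had a score of 62.4 on principal component 1 (23.0% of the variance), far from the rest. Basal epithelial genes were high there, with Krt5 at 735 CPM and Trp63 at 24.7 CPM, against at most 1.18 and 1.12 CPM elsewhere, and so was Olfm4, at 1056 CPM against at most 0.934 CPM; these genes were named after their values were seen. Control replicate 4 had the lowest score on that component, -31.0, and 5054 CPM of Prl8a2, a prolactin-family gene of the decidua, against 174 to 450 CPM in the other controls. PGR-B OE replicate 1 held the highest Gli1 and Ihh of the series, as described further on.

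Hhatl lies on chromosome 9, 121784016 to 121792507 of GRCm38, on the minus strand, with 15 merged exons, and no exon of another annotated gene overlaps it. RefSeq gives it 2 starts. The windows from 250 bases before to 50 bases after each are shown because they are the regions next to the start of the member that stood farthest from control; the annotated first base is the capital letter.
Hhatl start 1, chr9:121791071-121791370, minus strand: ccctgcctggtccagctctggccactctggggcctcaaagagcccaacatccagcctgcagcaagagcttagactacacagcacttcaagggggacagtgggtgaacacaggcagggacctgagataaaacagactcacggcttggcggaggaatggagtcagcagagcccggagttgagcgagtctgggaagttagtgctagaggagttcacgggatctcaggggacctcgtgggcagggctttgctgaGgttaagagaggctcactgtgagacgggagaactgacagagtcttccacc
Hhatl start 2, chr9:121792458-121792757, minus strand: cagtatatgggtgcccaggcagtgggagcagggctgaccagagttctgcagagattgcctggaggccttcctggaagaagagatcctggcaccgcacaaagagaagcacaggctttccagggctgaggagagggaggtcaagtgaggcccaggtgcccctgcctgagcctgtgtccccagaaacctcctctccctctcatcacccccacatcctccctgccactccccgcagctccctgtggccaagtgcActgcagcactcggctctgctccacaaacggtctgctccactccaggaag

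Both windows are rich in G and C, at 58.0% for the first start and 61.7% for the second. A search of both strands found no match in either window to the full progesterone response element palindrome (AGAACA and TGTTCT set 3 bases apart), to its half-site TGTTCT, to the Gli consensus TGGGTGGTC or to the CArG box read by serum response factor. The half-site is contained in the palindrome, so a palindrome would count for both. Of 32851 RefSeq mouse promoters of the same length, 0.00913% held the palindrome, 19.0% the half-site, 0.253% the Gli consensus and 1.63% a CArG box. RefSeq windows were matched for 7 of the 9 members, 8 windows in all, and no window held any of these letters. The absence of a match says only that these letters are not in these 300 bases.

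The acyltransferase relatives behaved differently in the 3 groups: Hhatl was high in every overexpression library and nearly absent from control, and Hhat overlapped across the groups. Hhatl stood at 14.0, 10.6, 11.5 and 16.4 CPM in PGR-B OE libraries, at 22.8, 14.4, 14.3 and 18.7 CPM in PGR-A OE libraries and at 0.580, 0.318, 0.726 and 0.387 CPM in control libraries. These levels rest on 473, 332, 358 and 536 counts in PGR-B OE, 783, 480, 445 and 636 in PGR-A OE and 18, 10, 23 and 13 in control. All 8 overexpression libraries lay far above all 4 controls, and the 2 overexpression groups overlapped each other. Because RNA came from homogenized tissue, more cells with Hhatl RNA and more Hhatl RNA per cell cannot be told apart, here or for any gene below.

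The group means of Hhatl were 13.1 ± 2.60 CPM in PGR-B OE, 17.6 ± 4.05 CPM in PGR-A OE and 0.503 ± 0.186 CPM in control (SD, n = 4 each). The ratio of means to control was 26.1 for PGR-B OE and 34.9 for PGR-A OE. Set against the highest control library, the lowest overexpression library lay at 14.6 times its level in PGR-B OE and at 19.7 times in PGR-A OE. When any 1 library was left out, the fitted log2 change moved between 4.54 and 4.93 for PGR-B OE and between 4.96 and 5.35 for PGR-A OE. These ranges describe the values by which the gene was picked. Hhatl is 1 of 48 genes (0.308% of 15561 tested) past the threshold in PGR-B OE against control and 1 of 102 (0.655%) in PGR-A OE against control, which restates how it was picked.

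The isoforms were compared by a test, since the contrast between them did not pick the gene. The libraries are still those in which Hhatl was picked as high in both groups, which the p-values do not take into account. Hhatl was lower in PGR-B OE than in PGR-A OE by point estimate, with a log2 difference of -0.42 (SE 0.20, 95% interval -0.86 to 0.03). The difference did not pass in the edgeR quasi-likelihood fit over all genes, whose p-values were Benjamini-Hochberg adjusted (adjusted p = 0.643), in a contrast where 18 of 15561 genes (0.116%) passed. An exact permutation test, two-sided and on log2 CPM, gave p = 0.114, where 4 against 4 libraries allow 0.0286 at best. The interval still holds values well below 0, so the test does not show that the isoforms act alike on Hhatl.

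Hhat (chromosome 1, 192496711 to 192771223, minus strand), the enzyme that palmitoylates hedgehog ligands, stood at 5.90, 3.45, 3.25 and 3.64 CPM in PGR-B OE libraries, 5.01, 4.39, 3.63 and 3.99 CPM in PGR-A OE libraries and 4.06, 3.69, 3.79 and 4.02 CPM in control libraries. The groups overlapped. The log2 change was 0.06 in PGR-B OE (SE 0.19, 95% interval -0.35 to 0.47) and 0.13 in PGR-A OE (SE 0.19, 95% interval -0.28 to 0.54), and neither passed in the edgeR fit (adjusted p = 0.952 and 0.784). In PGR-B OE the sign turned without replicate 1, to -0.17.

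**Figure D1:**
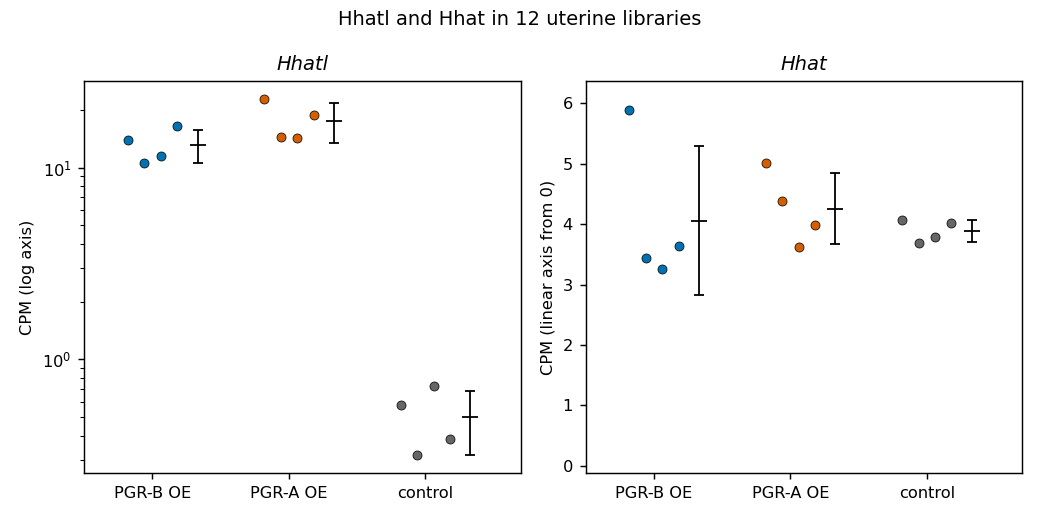
Level of Hhatl (left, log axis) and Hhat (right, linear axis from 0) in CPM in each library, with points for libraries and bars for the group mean ± SD (n = 4 each). Hhatl lay between 10.6 and 22.8 CPM in all 8 overexpression libraries and at or below 0.726 CPM in all 4 controls, and Hhat lay between 3.25 and 5.90 CPM in all 12.

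Levels per kilobase used the gene length deposited with the counts. Merged annotated exons total 9150 bases for Hhat, against 2835 by that length, and 2625 for Hhatl, against 1995. The order of the members can therefore depend on the length used. By the deposited length, Hhatl moved up that order in the overexpression groups. It came second in PGR-B OE, at 6.58 ± 1.31 CPM per kb, second in PGR-A OE, at 8.80 ± 2.03, and seventh in control, at 0.252 ± 0.093 (SD, n = 4 each). Among all 24964 genes it ranked 7762 in PGR-B OE, 6575 in PGR-A OE and 14838 in control. Smo was the highest member in every group, at 14.2 CPM per kb in PGR-B OE, 16.4 in PGR-A OE and 13.2 in control. In PGR-A OE the range of Hhatl (7.16 to 11.4 CPM per kb) touched neither that of Smo above it nor that of Gli2 below it. In PGR-B OE it lay below all Smo values but overlapped Gli1, whose range was widened by 1 library. In control it lay apart from both neighbours, below all Gli1 values and above all Ihh values. Gli2, Gli3 and Ptch1 overlapped one another in both overexpression groups; in control Ptch1 lay just below Gli2 and Gli3, which overlapped.

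Of the 8 other members, 6 had enough counts to be tested, and none passed in any comparison in the edgeR fit. At an unadjusted p under 0.05 the number was 0 of 6 in PGR-B OE against control, 1 of 6 in PGR-A OE against control and 0 of 6 in PGR-B OE versus PGR-A OE, where 9.28%, 15.4% and 8.04% of all genes tested stood past that mark. DESeq2 and limma voom also called 0 of 6 in each comparison, and DESeq2 gave no adjusted p for 1 of them, Gli1. Groups without overlap in CPM numbered 0 of 6, 1 of 6 (Smo) and 0 of 6 in the same order, beside 5.67%, 10.6% and 3.85% of all genes tested. Their median log2 change was 0.11 in PGR-B OE and 0.22 in PGR-A OE, and over all genes tested it was -0.01 in PGR-B OE and 0.00 in PGR-A OE.

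Both ligands were scarce. Ihh (chromosome 1, 74945315 to 74951672, minus strand) had 81, 7, 5 and 4 counts in PGR-B OE libraries, 2, 3, 4 and 2 in PGR-A OE libraries and 5, 6, 5 and 5 in control libraries. PGR-B OE replicate 1 thus held 81 of the 129 counts in the series, with an exact 95% Poisson interval of 64.3 to 101, against at most 7 counts (interval 2.81 to 14.4) in any other library. These intervals cover counting error only, and Ihh fell below the count filter, so it was not tested. Shh (chromosome 5, 28456815 to 28467256, minus strand) had 0 counts in all 12 libraries. A count of 0 allows up to 3 counts, which is 0.0874 to 0.0967 CPM depending on the library, so Shh was not detectable at this depth. The Shh model overlaps 9530036O11Rik and Gm26894 on the opposite strand.

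At the receptors, Ptch1 (chromosome 13, 63508328 to 63573598, minus strand), the ligand receptor and itself a pathway target, stood at 28.3, 12.7, 15.1 and 12.8 CPM in PGR-B OE libraries, 16.3, 16.4, 13.5 and 19.6 CPM in PGR-A OE libraries and 15.1, 15.7, 12.9 and 15.0 CPM in control libraries. Only PGR-B OE replicate 1 lay clear of the rest, and the group overlapped control. The log2 change was 0.23 in PGR-B OE (SE 0.23, adjusted p = 0.825) and 0.16 in PGR-A OE (SE 0.23, adjusted p = 0.771) in the edgeR fit. Without PGR-B OE replicate 1 the PGR-B OE value turned to -0.12.

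Smo (chromosome 6, 29735503 to 29761365, plus strand), the membrane protein that carries the signal inward, stood at 73.4, 55.2, 46.0 and 51.9 CPM in PGR-B OE libraries, 66.6, 62.2, 56.6 and 76.0 CPM in PGR-A OE libraries and 52.8, 51.4, 54.9 and 51.6 CPM in control libraries. All 4 PGR-A OE libraries lay above all 4 controls, which held for no other tested member but Hhatl. The log2 change in PGR-A OE was 0.31 (SE 0.13, 95% interval 0.03 to 0.59) and did not pass in the edgeR fit (adjusted p = 0.279, between 0.154 and 0.487 under the alternatives tried). It was 0.23 without PGR-A OE replicate 4. In PGR-B OE it was 0.11 (SE 0.13, adjusted p = 0.866), and -0.04 without replicate 1.

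The effectors gave 3 different pictures. Gli1 (chromosome 10, 127329882 to 127341974, minus strand), the activator that is also the most used readout of the pathway, stood at 41.3, 3.89, 2.42 and 4.38 CPM in PGR-B OE libraries, 6.79, 6.94, 2.41 and 6.58 CPM in PGR-A OE libraries and 4.74, 2.64, 5.71 and 4.62 CPM in control libraries. A single library, PGR-B OE replicate 1, stood far above the other 11, which overlapped across the groups. The log2 change in PGR-B OE was 1.56 (SE 0.77, 95% interval -0.11 to 3.23, adjusted p = 0.569 in the edgeR fit), and -0.31 without that library. In PGR-A OE it was 0.36 (SE 0.77, 95% interval -1.30 to 2.02, adjusted p = 0.860), an interval that leaves a change in either direction possible. The Gli1 model shares 327 exon bases with genes of the opposite strand, among them Arhgap9.

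Gli2 (chromosome 1, 118834132 to 119053619, minus strand), a Gli factor that acts mainly as an activator, stood at 27.2, 14.6, 12.8 and 15.2 CPM in PGR-B OE libraries, 20.2, 19.1, 15.4 and 23.5 CPM in PGR-A OE libraries and 18.3, 13.9, 17.7 and 14.8 CPM in control libraries. The groups overlapped, and the log2 change was 0.11 in PGR-B OE (SE 0.22, adjusted p = 0.918) and 0.27 in PGR-A OE (SE 0.22, adjusted p = 0.574) in the edgeR fit. Without PGR-B OE replicate 1 the PGR-B OE value was -0.19.

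Gli3 (chromosome 13, 15463235 to 15730026, plus strand), a Gli factor that acts mainly as a repressor, stood at 22.1, 21.8, 17.7 and 18.9 CPM in PGR-B OE libraries, 16.3, 16.4, 14.4 and 27.6 CPM in PGR-A OE libraries and 22.1, 20.3, 21.4 and 18.4 CPM in control libraries. Here PGR-B OE replicate 1 lay within the range of the others. In PGR-A OE, 3 libraries lay below all controls and replicate 4 lay above them. The log2 change was -0.03 in PGR-B OE (SE 0.17, adjusted p = 0.977) and -0.14 in PGR-A OE (SE 0.17, adjusted p = 0.741) in the edgeR fit, and -0.39 (adjusted p = 0.141) in PGR-A OE without replicate 4. Between the isoforms, the 6 members ran from -0.21 for Smo to 1.20 for Gli1 in PGR-B OE versus PGR-A OE, with adjusted p of 0.740 or more.

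**Figure D2:**
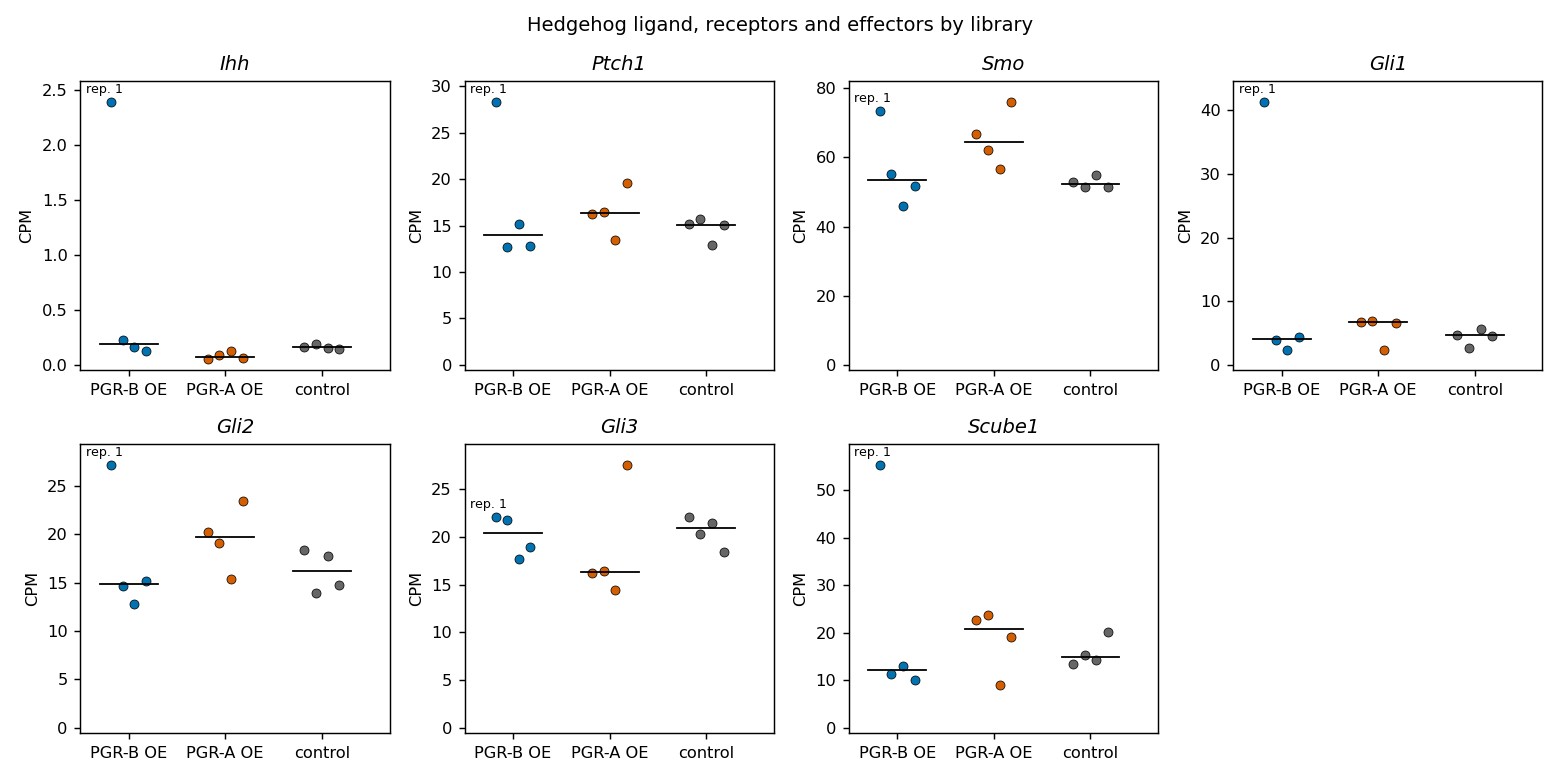
Level in CPM (linear axes) of the ligand Ihh, the receptor components Ptch1 and Smo, the effectors Gli1, Gli2 and Gli3, and the ligand release factor Scube1 in each library; points are libraries, lines are group medians, and the label marks PGR-B OE replicate 1. That library is the highest of 12 for Ihh, Ptch1, Gli1, Gli2 and Scube1, but not for Smo or Gli3.

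PGR-B OE replicate 1 stood high for some pathway genes and not for others. With Ihh 10.7 times the highest of the other 11 libraries, Gli1 was 5.95 times theirs. That ratio ranked 3 among the 11640 tested genes with at least 5 CPM in PGR-B OE replicate 1. Ihh lay below that level and was not ranked. The level was read in the same library, so the rank is a description only. Scube1, whose family helps release lipid-modified ligand, was at 55.3 CPM there and between 9.06 and 23.7 CPM elsewhere, a ratio of 2.33. Ptch1, Hhat, Gli2, Kif7, Evc2 and Sufu were also highest in that library, by ratios between 1.06 for Kif7 and 1.44 for Ptch1. Hhip, a pathway target, was not high there, at 0.796 CPM against a median of 1.47 CPM in the other 11 libraries. Dhh, Smo, Gli3, Disp1, Disp2, Scube2, Boc, Cdon and Gas1 also lay within the range of the others.

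Of 38 members and pathway genes, 9 were highest in that library and 1 was lowest. Among the 36 of them that were tested, 8 were highest there, against 9.28% of all genes tested. Of the same 36, 10 were highest in PGR-A OE replicate 4, against 16.4% of all genes tested, and 6 in PGR-A OE replicate 1, against 5.59%. Hhatl was not among the 9, at 14.0 CPM in PGR-B OE replicate 1 and up to 22.8 CPM in other libraries. Markers of other cells were compared in PGR-B OE replicate 1. Of 9 epithelial markers, 8 lay within the range of the other 11 libraries and 1 below it. Above it lay 3 of 7 stromal and 3 of 18 striated muscle markers, and below it 5 of 10 smooth muscle markers. Hand2 and Bmp2, among the 3 stromal markers, are also on the list of hedgehog target genes read below. They are therefore not a separate reading of cell composition. The summed epithelial level was 1241 CPM in that library, within the 1212 to 2554 CPM of the other libraries. The part of cell composition or tissue sampling in its hedgehog values was not tested. Outside the pathway, Gzmf (14.6 times the highest of the other 11 libraries) and Alox15 (8.14 times) had the highest ratios in PGR-B OE replicate 1. Lef1 ranked 12 there (2.80 times). These ranks are among tested genes with at least 5 CPM in that library, and the 3 genes were named after their values were seen.

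The wider pathway was read from a list of 29 genes, all tested: the ligand Dhh, receptor-level partners, release factors, and regulators between Smo and Gli. In the edgeR fit 0 of 29 passed in any comparison. At an unadjusted p under 0.05 the number was 3 of 29 in PGR-B OE against control, 9 of 29 in PGR-A OE against control and 1 of 29 in PGR-B OE versus PGR-A OE, beside 9.28%, 15.4% and 8.04% of all genes tested. Groups did not overlap in CPM for 5, 8 and 3 of 29 in the same order, beside 5.67%, 10.6% and 3.85%. DESeq2 called 1, 4 and 1 of 29, beside 1.42%, 3.62% and 0.81% of all genes tested, and limma voom called 0 in each; DESeq2 gave no adjusted p for 1 of the 29. The median log2 change was 0.06 in PGR-B OE and 0.08 in PGR-A OE, with 21 of 29 above 0 in each. Over all 15561 genes tested, 7595 lay above 0 in PGR-B OE and 7797 in PGR-A OE. The 2 comparisons share their controls.

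Hhip, a membrane protein that binds and sequesters hedgehog ligand and is itself a target, was the pathway gene with the lowest p in PGR-A OE. It stood at 0.796, 1.15, 0.741 and 1.47 CPM in PGR-B OE libraries, 5.71, 3.10, 6.07 and 16.0 CPM in PGR-A OE libraries and 0.838, 0.922, 2.81 and 0.536 CPM in control libraries. Every PGR-A OE library lay above all 8 others. The log2 change in PGR-A OE against control was 2.60 (SE 0.56, 95% interval 1.37 to 3.82) and missed the threshold in the edgeR fit (adjusted p = 0.0696). It passed by DESeq2 (adjusted p = 0.00021) and by edgeR without control replicate 3 (3.33, adjusted p = 0.0272), and it was 1.96 (adjusted p = 0.121) without PGR-A OE replicate 4. The difference between the isoforms was -2.89 in PGR-B OE versus PGR-A OE (SE 0.57, adjusted p = 0.127 by edgeR, 4.83e-05 by DESeq2).

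Disp2, a relative of the ligand-releasing protein encoded by Disp1, stood at 11.5, 8.58, 13.4 and 11.4 CPM in PGR-B OE libraries, 16.5, 14.6, 7.58 and 6.23 CPM in PGR-A OE libraries and 5.38, 5.06, 3.63 and 4.26 CPM in control libraries. Neither overexpression group overlapped control. The log2 change was 1.29 in PGR-B OE (SE 0.29, adjusted p = 0.117) and 1.29 in PGR-A OE (SE 0.29, adjusted p = 0.0732) in the edgeR fit, short of the threshold in both. DESeq2 called it in both (adjusted p = 0.00163 and 0.00109). By edgeR it also passed in PGR-A OE without replicate 4 (1.49, adjusted p = 0.0202). In PGR-B OE it passed when only the 8 libraries of that comparison were fitted (adjusted p = 0.0169).

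Scube2, the release factor best known for hedgehog ligands, stood at 27.8, 22.1, 24.5 and 26.6 CPM in PGR-B OE libraries, 23.4, 26.5, 27.3 and 46.4 CPM in PGR-A OE libraries and 18.4, 19.1, 16.5 and 17.9 CPM in control libraries, without overlap with control in either. Its log2 change was 0.49 in PGR-B OE (adjusted p = 0.431) and 0.78 in PGR-A OE (adjusted p = 0.0838) in the edgeR fit, and 0.52 (adjusted p = 0.0346) in PGR-A OE without replicate 4. DESeq2 called it in PGR-A OE (adjusted p = 0.00405). Boc, a ligand co-receptor, averaged 67.9 ± 8.62 CPM in PGR-B OE, 64.5 ± 6.52 CPM in PGR-A OE and 54.0 ± 2.08 CPM in control (SD, n = 4 each). Its log2 change was 0.33 in PGR-B OE (adjusted p = 0.268) and 0.26 in PGR-A OE (adjusted p = 0.232) by the same test, past the threshold in neither. In PGR-B OE versus PGR-A OE, the genes next to Hhip by p were Scube2 (-0.29, adjusted p = 0.733) and Mgrn1 (-0.10, adjusted p = 0.738).

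**Figure D3:**
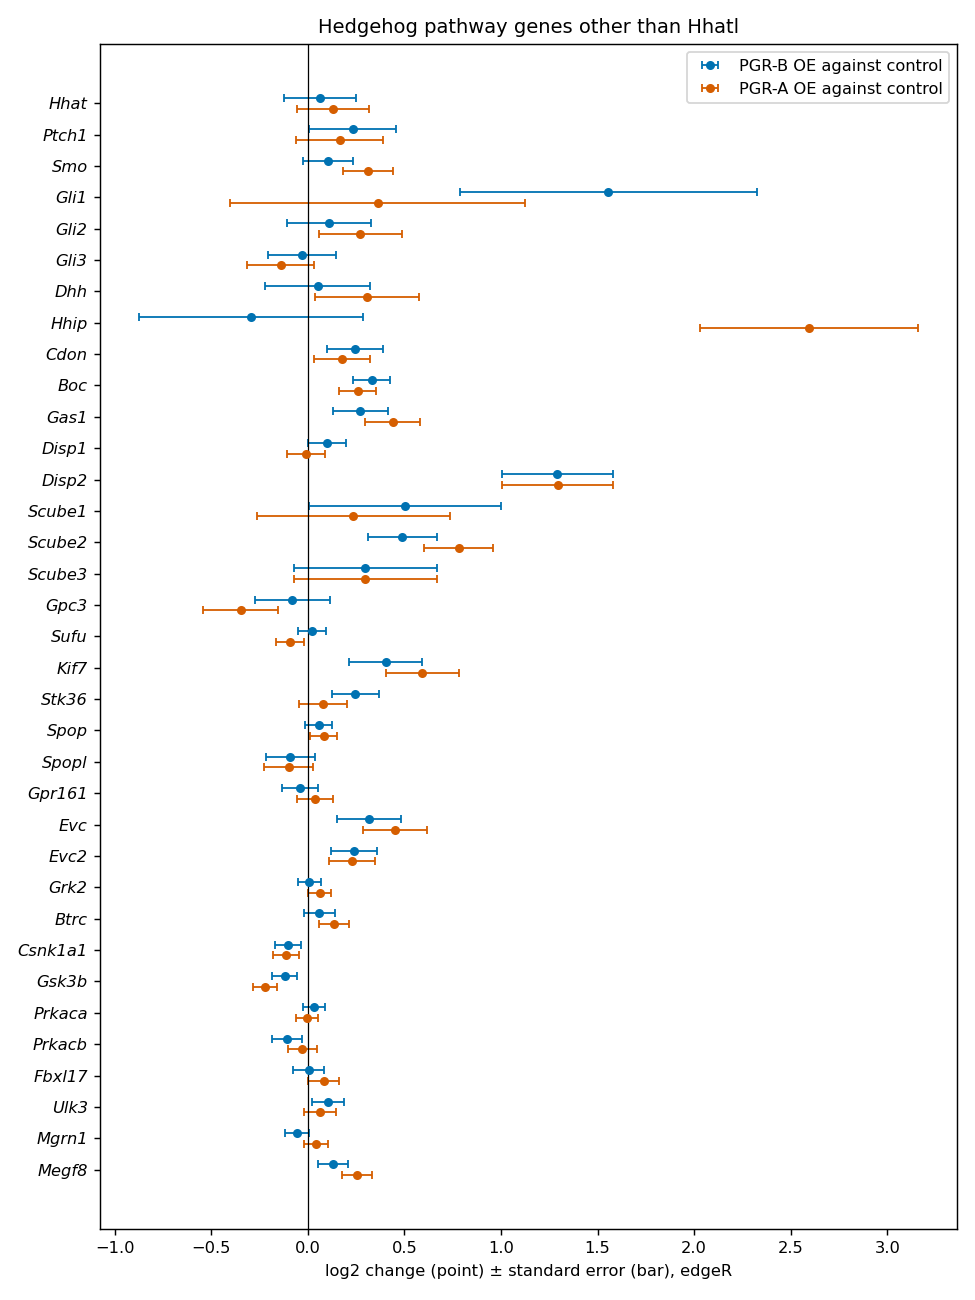
Log2 change (points) with its standard error (bars) of 6 tested members and the 29 pathway genes in PGR-B OE and PGR-A OE against control, from edgeR. None of the 35 passed; Gli1 in PGR-B OE (1.56, set by 1 library), Hhip in PGR-A OE (2.60) and Disp2 in both (1.29) lie farthest from 0.

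**Figure D4:**
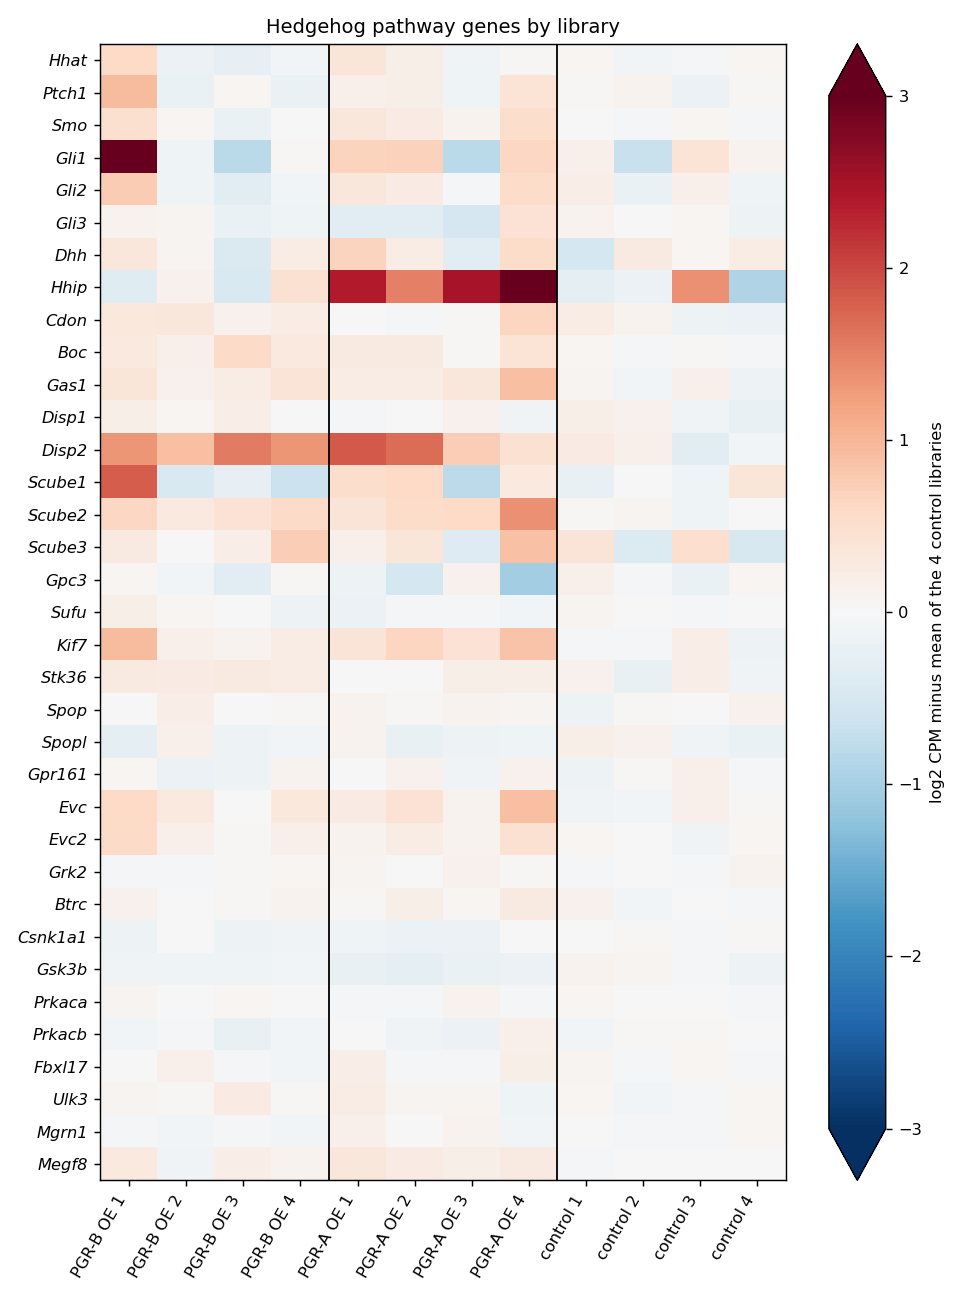
Log2 CPM of the same 35 genes in each library minus the mean of the 4 control libraries, with colours limited at -3 and 3. The column of PGR-B OE replicate 1 is red for Gli1 and Scube1 where the rest of its group is not, and the row of Hhip is red in all 4 PGR-A OE libraries.

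Genes that report or carry hedgehog signalling were read from 2 more lists. Of 16 listed target genes 14 were tested and 0 passed in any comparison in the edgeR fit, with 1, 2 and 0 at an unadjusted p under 0.05 in PGR-B OE against control, PGR-A OE against control and PGR-B OE versus PGR-A OE, where 9.28%, 15.4% and 8.04% of all genes tested stood past that mark. Of 14 genes of the primary cilium, the organelle in which Smo and the Gli factors work, 0 passed, with 1, 1 and 2 at that mark, and DESeq2 and limma voom called 0 of either list. Hand2, a stromal transcription factor, had the lowest p of the targets in PGR-B OE, at 78.2, 41.9, 40.6 and 47.2 CPM in PGR-B OE libraries and 31.7, 32.0, 36.1 and 40.9 CPM in control libraries. Its log2 change was 0.56 (SE 0.19, adjusted p = 0.376) by the same test, and 0.30 without PGR-B OE replicate 1.

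The next lowest p of the targets in PGR-B OE belonged to Sfrp1 (log2 change 0.65) and Igfbp3 (0.62), and in PGR-A OE to Tgfb2 (-0.59), Bcl2 (0.42) and Hand2 (0.39). Between the isoforms they belonged to Bcl2 (-0.28), Tgfb2 (0.37) and Igfbp3 (0.50) in PGR-B OE versus PGR-A OE. Igfbp3 stood at 419.7 CPM in PGR-B OE replicate 1 and at 131 to 193 CPM in the other 3 PGR-B OE libraries. Without that library its log2 change against control was 0.17, and the difference of PGR-B OE from PGR-A OE was 0.042. Of the cilium genes, those with the lowest p were Kif3a (0.18), Cep290 (0.21) and Ift172 (0.20) in PGR-B OE, and Intu (-0.31), Arl13b (-0.31) and Rpgrip1l (-0.19) in PGR-A OE. Between the isoforms they were Intu (0.29), Kif3a (0.17) and Cep290 (0.22). The adjusted p of every target and cilium value in this paragraph was 0.264 or more in the edgeR fit.

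None of the other membrane-bound acyltransferases passed in the edgeR fit. Of 9 listed, 8 were tested, and 0 passed in any comparison, beside 0.308%, 0.655% and 0.116% of all genes tested in the same order of comparisons. At an unadjusted p under 0.05 stood 0, 2 and 1, beside 9.28%, 15.4% and 8.04% of all genes tested. Limma voom called 0, and DESeq2 called 1, Mboat2 in PGR-A OE against control, beside 3.62% of all genes tested. The median log2 change of the 8 was -0.05 in PGR-B OE and -0.02 in PGR-A OE. Mboat2, a lysophospholipid acyltransferase, had the lowest p, with 42.4, 50.8, 64.5 and 55.6 CPM in PGR-A OE libraries and 105, 94.1, 71.1 and 69.98 CPM in control libraries. Its log2 change was -0.67 (SE 0.17, adjusted p = 0.109 by edgeR, 0.0131 by DESeq2), so the call depends on the tool. Soat2, which esterifies cholesterol, had a log2 change of 0.60 in PGR-B OE (adjusted p = 0.598) and 0.85 in PGR-A OE (adjusted p = 0.232). Lpcat3, another lysophospholipid acyltransferase, had one of -0.27 in PGR-B OE (adjusted p = 0.570) and -0.29 in PGR-A OE (adjusted p = 0.329), short of the threshold like Soat2 in the edgeR fit. In PGR-B OE versus PGR-A OE, Mboat2 stood at 0.47, Soat1 at -0.13 and Soat2 at -0.25 on the log2 scale, with adjusted p of 0.523 or more.

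Around Hhatl on chromosome 9, a window of 200 kb to either side held 16 other genes with a count, of which 14 were tested. In PGR-B OE against control 0 of 14 passed in the edgeR fit, with 4 at an unadjusted p under 0.05, beside 9.28% of all genes tested, and 0 called by DESeq2 or limma voom. In PGR-A OE against control 2 of 14 passed, Zfp651 and Ccdc13, beside 0.655% of all genes tested. DESeq2 called 3, beside 3.62% of all genes tested, and limma voom 1, beside 95 of all 15561 genes tested. In PGR-B OE versus PGR-A OE 0 of 14 passed, with 3 at an unadjusted p under 0.05, beside 8.04% of all genes tested, 1 called by DESeq2 (Zfp651) and 0 by limma voom. The median log2 change of the 14 was 0.10 in PGR-B OE and 0.05 in PGR-A OE. Lyzl4 and Lyzl4os had too few counts to be tested.

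Zfp651 (121759330 to 121771742, plus strand), a zinc finger gene, had 1956, 1652, 1426 and 1772 counts in PGR-B OE libraries, 2332, 2146, 1933 and 2429 in PGR-A OE libraries and 1397, 1353, 1600 and 1393 in control libraries. It rose in PGR-A OE by a log2 change of 0.56 (SE 0.08, 95% interval 0.38 to 0.75, adjusted p = 0.0115 in the edgeR fit), higher in 4 of 4 libraries than in any control. The call held under all 15 alternatives, with an adjusted p of at most 0.0492. In PGR-B OE the log2 change was 0.23 (SE 0.08, adjusted p = 0.442), and the difference of PGR-B OE from PGR-A OE was -0.34 (SE 0.08, adjusted p = 0.263 by edgeR). It shares 109 exon bases with E530011L22Rik on the opposite strand, whose log2 change in PGR-A OE was 0.64 (SE 0.20, adjusted p = 0.170), and how reads of the shared part were divided is not given.

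Ccdc13 (121797627 to 121839461, minus strand), the next gene on the side of the Hhatl start, was barely detected. It had 17, 19, 6 and 12 counts in PGR-B OE libraries, 26, 19, 13 and 36 in PGR-A OE libraries and 3, 5, 4 and 0 in control libraries, and neither overexpression group overlapped control. In PGR-A OE the log2 change was 2.85 (SE 0.57, adjusted p = 0.0447 in the edgeR fit). That call held in 3 of 15 alternatives only, with an adjusted p of up to 0.164 without control replicate 1. In PGR-B OE it was 2.10 (SE 0.59, adjusted p = 0.252), short of the threshold.

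Klhl40 (121777607 to 121783818, plus strand), a gene known from striated muscle, ends 197 bases from the 3′ end of Hhatl on the opposite strand. It had 8, 6, 8 and 10 counts in PGR-B OE libraries, 18, 19, 13 and 19 in PGR-A OE libraries and 6, 1, 4 and 8 in control libraries. Its log2 change in PGR-A OE was 1.78 (SE 0.39, adjusted p = 0.0696 in the edgeR fit, 0.0207 by DESeq2), which rests on few counts. In PGR-B OE it was 0.73 (SE 0.42, adjusted p = 0.632), and between PGR-B OE and PGR-A OE it was -1.05 (SE 0.36, adjusted p = 0.483). Reads running past the end of Hhatl could be counted there only without strand, and the use of strand is not given; this was not tested.

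No other gene of the window passed in the edgeR fit. Ackr2, a scavenger receptor for chemokines, had the lowest p in PGR-B OE, with a log2 change of -0.78 (SE 0.21, adjusted p = 0.242 in the edgeR fit), and -0.25 in PGR-A OE. The other 9 tested genes were Vipr1, Sec22c, Ss18l2, Nktr, Higd1a, Cyp8b1, 1700048O20Rik, Fam198a and Pomgnt2. Their log2 changes lay between -0.42 for Cyp8b1 and 0.84 for Fam198a in PGR-B OE, and between -0.56 for Cyp8b1 and 0.54 for Fam198a in PGR-A OE. Higd1a, the next gene beyond Ccdc13, stood at -0.05 in PGR-B OE and 0.03 in PGR-A OE.

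**Figure D5:**
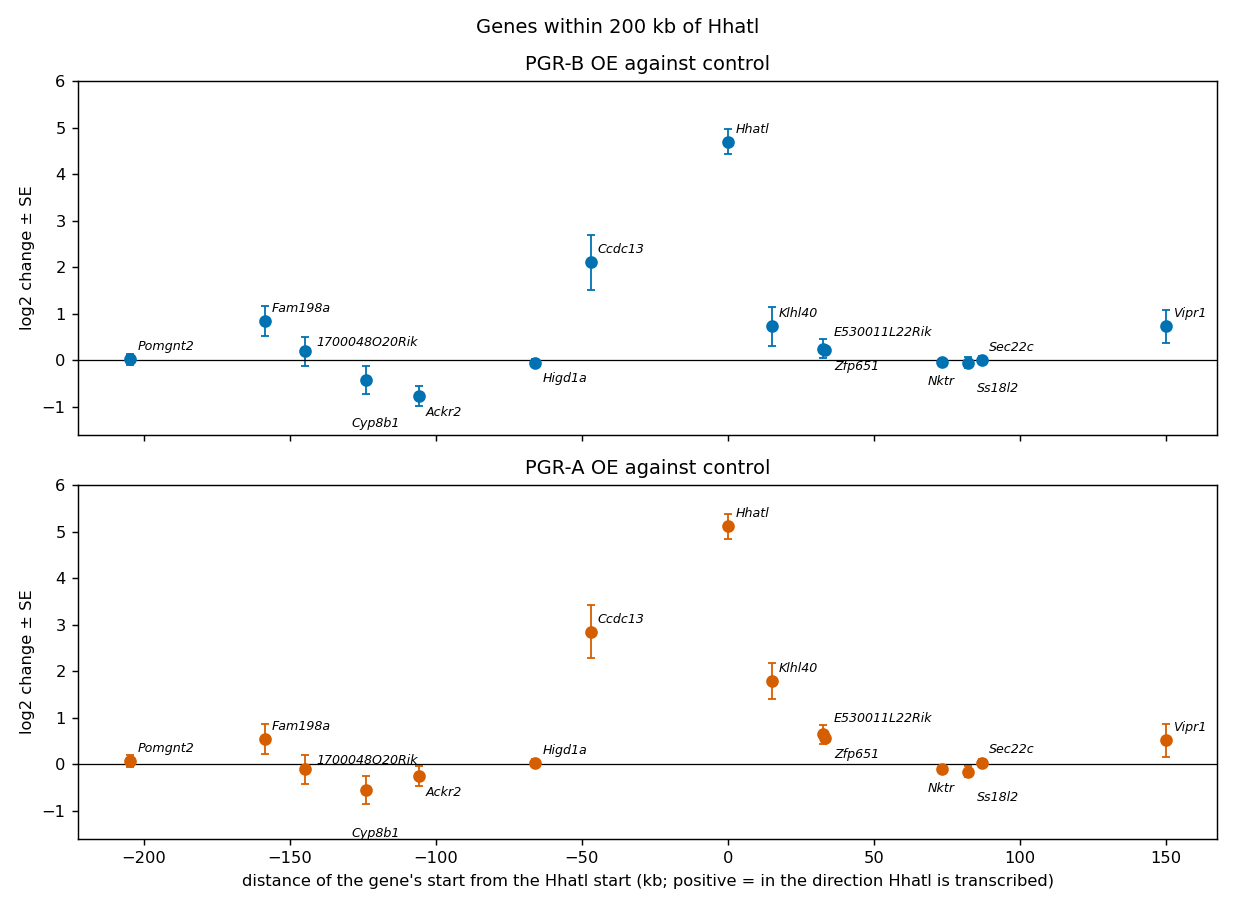
Log2 change (points) with its standard error (bars) in PGR-B OE (top) and PGR-A OE (bottom) against control for Hhatl and the 14 tested genes whose models lie within 200 kb of it, placed by the distance of their starts from the Hhatl start in kb along its direction of transcription. Hhatl stands at 4.70 and 5.12, Ccdc13 at 2.10 and 2.85 and Klhl40 at 0.73 and 1.78, and every other gene lies closer to 0 in PGR-A OE than Klhl40.

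Since Hhatl is known from striated muscle, markers of that tissue were set beside it. Summed over 23 striated muscle genes, the level was 196 to 281 CPM in PGR-B OE, 205 to 304 CPM in PGR-A OE and 175 to 241 CPM in control libraries. Of the 18 tested, 0 passed in either comparison with control in the edgeR fit, beside 0.308% of all genes tested in PGR-B OE and 0.655% in PGR-A OE. The median log2 change of the 18 was 0.07 in PGR-B OE and 0.04 in PGR-A OE. Myh4, a fast skeletal myosin, had no count in any library, and the means of Myh1 and Myh7 were at or below 0.05 CPM in every group. Acta1, a skeletal actin, made up 59.1% to 75.0% of the sum in each library. The other 22 genes summed to 52.2 to 90.1 CPM in PGR-B OE, 57.1 to 88.2 CPM in PGR-A OE and 54.5 to 71.5 CPM in control libraries, so the ranges overlapped between the groups with and without Acta1. The 10 smooth muscle markers all had a higher point estimate in PGR-A OE than in control (median log2 change 0.30), and 3 of 10 had one in PGR-B OE (median -0.07), with 0 passing in either. Of all 15561 genes tested, 7797 had a higher point estimate in PGR-A OE than in control and 7595 in PGR-B OE. The part of these muscle markers in the Hhatl level was not tested.

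The genes most like Hhatl across the 12 libraries were ranked by Pearson's r of log2 CPM, as a description. Of the 10 highest, 9 were Wfdc6a (0.969), Rab3c (0.964), Wfdc6b (0.961), Lct (0.952), Sctr (0.939), Ccdc92 (0.939), Kcnip2 (0.935), AI593442 (0.932) and Myzap (0.929). Wfdc6a and Wfdc6b are close paralogs between which reads may be split. Rab3c, a small GTPase of secretory vesicles, averaged 2.61 CPM in PGR-B OE, 3.95 CPM in PGR-A OE and 0.503 CPM in control. The 5 most opposite were Fam135a (-0.923), Zbtb11 (-0.912), Dusp11 (-0.904), Cpeb2 (-0.901) and Rpl30 (-0.900).

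The hedgehog members were not among them. Their r with Hhatl ran from -0.19 for Gli3 to 0.49 for Smo over the same 12 libraries, and Ihh and Shh were too scarce for a value. Of the 29 pathway genes, Disp2 was the most like Hhatl (0.82) and Gsk3b, a kinase that marks Gli proteins for processing, the least (-0.72). The 12 points fall into 8 overexpression libraries with high Hhatl and 4 controls with low Hhatl, so each r mainly reads that gap, and they share tissue and depth.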

How the data were processed

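RNA of uterine tissue was made into 12 libraries with a TruSeq RNA kit and read as 75 bp pairs, per the labels' protocols. The authors deposited 1 table of raw whole-number counts per gene, not normalized. STAR 2.7.0f, Bowtie2 2.2.5, Subread 1.6.4 with featureCounts, and DESeq2 are named by the submitters' processing notes, beside the builds GRCm38 and mm10. What each tool did, which annotation was read and whether strand was used is not given, so counts of overlapping genes and close paralogs are uncertain.

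The fit was made in edgeR 4.0.16 under R 4.3.3 (robust quasi-likelihood test, TMM scaling, filterByExpr, all 12 libraries in 1 fit), which left 15561 genes tested, 4393 having no count. Adjusted p-values are Benjamini-Hochberg values across those 15561 genes, with a threshold of 0.05. Intervals are 95%. Alternatives were relative log expression scaling, no filter, DESeq2 1.42.0, limma 3.58.1 voom, a fit of the 8 libraries compared, the replicate number as a block, and each library left out. The script was tested on simulated data. No pair of libraries of the same group was identical or within sampling noise. Pairs across groups were not compared in this way.

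Levels per kb use the gene length in the deposited table. Positions come from GENCODE for GRCm38 (24379 symbols matched), and promoters from RefSeq, GRCm38.p6. The members, gene lists and tests were chosen with earlier results of these data known. Named genes are the 9 members; in each list those past the threshold or, failing that, up to 3 with the lowest p; genes within 200 kb of Hhatl; and the 10 most like and 5 most opposite to Hhatl. A gene of the pathway list and a gene among the 10 most like are not reported here.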

Additional observations from a re-analysis of the deposited data

Results flagged for a closer look

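In each group of 4 libraries, a library was marked when its gap to the nearest of the other 3 took up more of the group's range than Dixon's 95% critical value allows. Of 123 combinations of gene and group examined, 13 were marked (10.6%). The critical value is set to mark about 1 in 20 of independent, normally distributed values. Genes read in the same libraries are not independent, and the share marked over all genes was not computed. The 10.6% is therefore not read as an excess for these genes.

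PGR-B OE replicate 1 was high for 7 genes: Ihh at 2.39 CPM, Gli1 at 41.3 CPM, Gli2 at 27.2 CPM, Ptch1 at 28.3 CPM, Hhat at 5.90 CPM, Scube1 at 55.3 CPM and Kif7 at 13.0 CPM. PGR-A OE replicate 4, which also lies apart on the first principal component, was high for 4 genes: Gli3 at 27.6 CPM, Cdon at 52.6 CPM, Gas1 at 428 CPM and Scube2 at 46.4 CPM. PGR-A OE replicate 3 was low for Gli1, at 2.41 CPM. Control replicate 3 was high for Hhip, at 2.81 CPM. No library was marked for Hhatl in any group.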

How the results depend on the processing

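Hhatl kept its direction against control under every alternative run, which follows from how it was picked. The 0 calls among the 6 other tested members held under all of them. In the pathway list the count became 1 in PGR-B OE against control by DESeq2 and in the fit of 8 libraries, and DESeq2 gave 4 in PGR-A OE against control. It gave 1 in PGR-B OE versus PGR-A OE; leaving out 1 library gave 0 to 2 in PGR-A OE against control (1 when control replicate 3 was out, 2 when PGR-A OE replicate 4 was). Near Hhatl, the 2 calls of PGR-A OE against control became 1 without a filter, by voom, with the replicate block and in the fit of 8 libraries, and leaving out 1 library gave 1 to 2; DESeq2 gave 1 in PGR-B OE versus PGR-A OE. Leaving out PGR-B OE replicate 1 from PGR-A OE against control was an alternative chosen after seeing the data, and also gave 1.

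Signs turned for members that had not passed the threshold. In PGR-B OE against control, leaving out 1 library moved Hhat between -0.17 and 0.16, Ptch1 between -0.12 and 0.36, Smo between -0.045 and 0.19, Gli1 between -0.31 and 1.90, Gli2 between -0.19 and 0.23 and Gli3 between -0.080 and 0.028. In PGR-A OE against control it moved Gli1 between 0.18 and 0.61 and Gli3 between -0.39 and -0.033, with no change of sign. In PGR-B OE versus PGR-A OE it moved Hhat between -0.30 and 0.025, Ptch1 between -0.28 and 0.19 and Gli1 between -0.67 and 1.54, and voom gave Ptch1 -0.0013.

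All genes called numbered 48, 102 and 18 in PGR-B OE against control, PGR-A OE against control and PGR-B OE versus PGR-A OE by edgeR, 221, 564 and 126 by DESeq2, and 44, 63 and 10 in fits of 8 libraries. The labels do not say whether replicate numbers pair the libraries. Same-numbered libraries correlated between -0.26 and 0.19 in their deviations, and at most 1 of 4 correlated best with its own number. No pairing was seen in these values, but 4 libraries per group cannot show that there is none. With the replicate block the counts were 32, 69 and 11. At a few counts per library, Ihh, Shh, Ccdc13 and Klhl40 are limited by depth.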

Other observations

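Across libraries, Gli1 was compared with 6 genes of its pathway, with and without PGR-B OE replicate 1. The 6 relations were chosen after the values were seen, and each is over log2 CPM with a permutation p adjusted over the 6. That adjustment does not cover the choice, and the permutation ignored the 3 groups, so the p-values serve as descriptions only. How many other genes correlate as closely with Gli1 was not computed. For Gli2, Pearson's r was 0.872 (adjusted p = 0.00042) and Spearman's rho 0.853 (adjusted p = 0.00249) over 12 libraries, and r was 0.836 (permutation, adjusted p = 0.00882) and rho 0.809 (adjusted p = 0.0119) over the other 11. For Hhat, r was 0.892 and rho 0.888 over 12 libraries (permutation, adjusted p = 0.0006 and 0.00162), and r was 0.758 and rho 0.855 over 11 (adjusted p = 0.015 and 0.00996). Without the 2 libraries farthest from the median of Gli1 in the 12, r was 0.884 for Gli2 and 0.778 for Hhat. For Ptch1, r was 0.82 and rho 0.615 over 12 libraries (permutation, adjusted p = 0.0125 and 0.0462), and r was 0.378 and rho 0.5 over 11 (adjusted p = 0.3 and 0.147), so that relation rests on PGR-B OE replicate 1; without the 2 farthest libraries of the 12 it was 0.303. For Smo, r was 0.732 and rho 0.678 over 12 libraries (permutation, adjusted p = 0.00466 and 0.0286). Over 11 libraries its r was 0.691 and its rho 0.609 (permutation, adjusted p = 0.0322 and 0.0773). Without the 2 farthest libraries of the 12, its r was 0.795. For Scube1, r was 0.884 and rho 0.832 over 12 libraries (permutation, adjusted p = 0.0019 and 0.00272), and r was 0.676 and rho 0.782 over 11 (adjusted p = 0.0374 and 0.0122); without the 2 farthest libraries of the 12, r was 0.572. For Gli3, r was 0.34 and rho 0.322 over 12 libraries (permutation, adjusted p = 0.276 and 0.306). Groups of 4 are too small for a value within each.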
